A study of Mus musculus with 12 samples.

Results

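The comparison is the difference between the calcitriol effects of the 2 genotypes in mouse colonic organoids: the effect in wild type minus the effect in Vdr knockout, for every gene. It uses all 12 arrays of the series, and each calcitriol array was paired with the vehicle array of the same genotype and number, which come from 1 mouse. Organoids were grown in Matrigel from the colonic crypts of 3 wild-type (wt) and 3 VDR KO (ko) mice, all C57BL/6 and 2 or 3 months old, as a culture enriched in stem cells. In all groups the medium received either EtOH, the vehicle, or calcitriol, the active form of vitamin D, at 100 nM, given again every 48 h. The 4 groups are therefore wt with EtOH, wt with calcitriol, ko with EtOH and ko with calcitriol, with 3 arrays each. The labels do not say which part of Vdr is deleted, and they disagree on the time of treatment, given once as 72 h and once as 62 h. The question is which responses to the hormone depend on its receptor and which are shared by both genotypes.

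Calcitriol is a steroid hormone that enters the cell and binds the vitamin D receptor, a nuclear receptor encoded by Vdr. The receptor pairs with a retinoid X receptor, binds DNA at paired copies of a short half-site and changes transcription of nearby genes. In the gut it is best known for the genes of calcium uptake and for Cyp24a1, whose enzyme breaks the hormone down. A gene that responds through the receptor should move in wild type and not in the knockout, so the difference of the effects is the direct measure.

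Levels are log2 of the processed spot signal minus the 75th percentile of the array, and an effect is the level with calcitriol minus the level with vehicle in 1 mouse. An effect of 1 is a doubling. Vdr itself lay at 1.13, 1.66 and 2.01 on the wt vehicle arrays, at 1.07, 0.82 and 1.18 with calcitriol, at -0.35, 0.08 and 0.25 on the ko vehicle arrays and at -0.43, -0.20 and 0.37 with calcitriol. The genotypes did not overlap. The probe was well above background in every group, and its place relative to the deletion is not known here. The effect of calcitriol on Vdr was -0.58 in wild type (SE 0.16, limma adjusted p = 0.256) and -0.08 in knockout (SE 0.16), and their difference of -0.50 (95% interval -1.03 to 0.04) did not pass (adjusted p = 0.642).

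The arrays and the cells set limits that touch every result. Per array, the 75th percentile ranged from 580.6 to 790.5 signal units, and the wt vehicle array of mouse 2 stood apart at low signal, with 72.8% of its spots well above background against 54.96% to 66.4% on the others. The 12 arrays lay on 3 slides, and the largest held all 3 wt calcitriol arrays but 1 wt vehicle array, so slide and treatment overlap. For ko mice 1 and 2 the calcitriol arrays were on the largest slide. Their vehicle arrays were on a slide that held no wt array. For ko mouse 3 the vehicle array was on the largest slide and the calcitriol array was not. Slide therefore overlaps with the difference between genotypes as well, and no ko effect was measured within a slide. Only wt mouse 3 had both of its arrays on 1 slide, which makes its effects the ones measured within a slide. A fit with mouse and slide as blocks therefore takes its wild-type effect from wt mouse 3 alone. Its knockout effect is that of ko mouse 3 plus a slide term taken from the wt mice, and ko mice 1 and 2 add nothing to the value. All 14 epithelial markers were above background, and the log2 of their summed signal was 10.6 to 10.9 over the 12 arrays. Of the markers of other cells, 8 of 14 for immune cells, 7 of 14 for fibroblasts and 9 of 14 for endothelium, nerve and glia passed the filter on dim probes. Their summed signals were 3.78 to 4.93, 2.08 to 2.89 and 2.75 to 4.21. In whole organoids, fewer cells of a type and less RNA per cell cannot be told apart.

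Of 24245 genes tested, 58 were called in the difference, or 0.239%: 53 with the larger response in wild type (0.219%) and 5 with a stronger fall there (0.0206%). The median difference over all genes was -0.07, and 1942 genes had an unadjusted p under 0.05. The split moved with the setting: 38 higher and 27 lower with mouse and slide as blocks, 185 and 42 with each array scaled to its median, and 145 and 87 with the numbers also pairing the genotypes, a fit that held all 58. All 58 were also among the 235 genes called in wild type (0.969%), of which 163 rose (0.672%) and 72 fell (0.297%). With each array scaled to its median 648 were called there, 543 higher and 105 lower, and with the numbers pairing the genotypes 1329, 875 higher and 454 lower. In all 58 the 3 effects of one genotype lay entirely above those of the other, which held for 14.8% of all genes. The calls came from these same effects, so this is no separate support. The 53 genes had a median effect of 1.73 in wild type and 0.0046 in knockout, where single genes ranged from -0.32 to 0.97. For the 5 falling genes the medians were -1.83 and -0.06. The 95% interval of the knockout effect included 0 for 57 of the 58. Over all genes that interval lay above 0 for 5.50% and below 0 for 2.50%, so most genes share this trait. The called differences were thus responses of the wild type, beside knockout intervals that included 0 as they did for most genes.

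**Figure D1:**
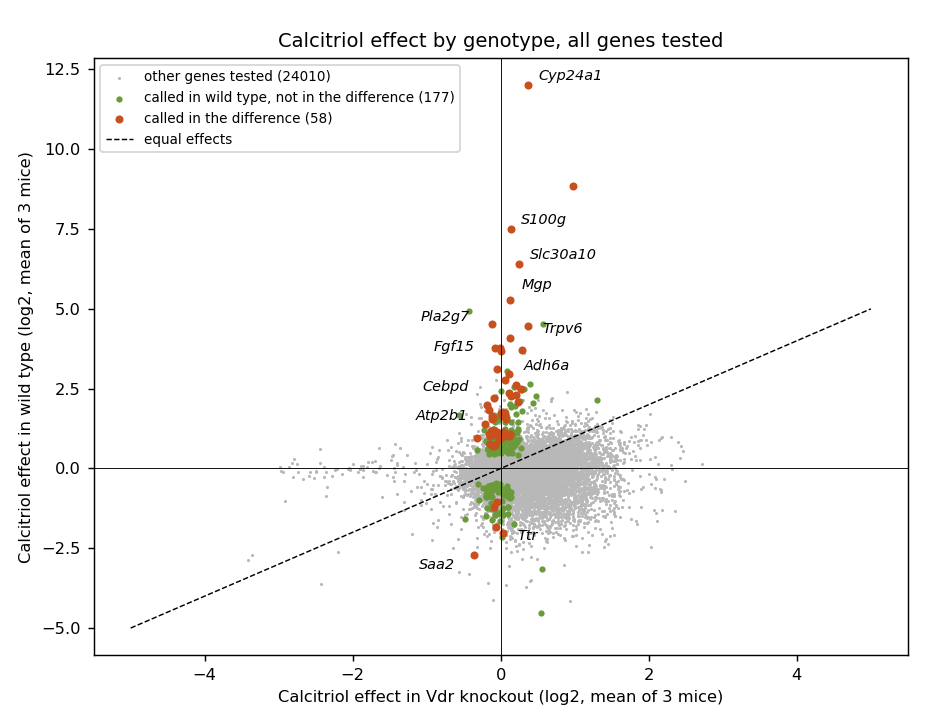
Calcitriol effect in wild type (vertical axis) against the effect in Vdr knockout (horizontal axis), both log2 means over 3 mice, for all 24245 genes. The 58 genes called in the difference (orange) and the 177 called only in wild type (green) lie along the vertical axis, where the knockout effect is 0, and not along the dashed line of equal effects.

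Cyp24a1 and Cubn, genes of vitamin D breakdown and uptake, were both called. Cyp24a1 lay at -7.48, -6.47 and -4.13 in wt vehicle, where it was well above background on 1 of 3 arrays, and at 5.59, 5.88 and 6.45 with calcitriol. On the 6 ko arrays it lay between -8.18 and -6.25 and was never above background. All wt calcitriol arrays were high and every other array was low. The difference passed (adjusted p = 0.00259), but its fitted value is no measured size, because both knockout groups lay below background. Cubn encodes cubilin, which takes up the carrier protein of vitamin D and vitamin B12 complexes. Its level went from 1.97, 0.44 and 0.56 to 3.49, 2.22 and 2.46 in wild type, and from 1.72, 0.22 and 0.90 to 1.68, 0.37 and 0.80 in knockout. The levels of the groups overlapped between mice, but the effects within mice did not: 1.52, 1.78 and 1.90 against -0.04, 0.15 and -0.10. The difference was 1.73 (SE 0.14, n = 3 and 3 mice, adjusted p = 0.00391), and a second probe gave 1.61. These were the 2 called among 8 tested members of the list of vitamin D metabolism, beside 0.239% of all genes. Cyp27b1, which makes calcitriol, differed by 0.09 and Cyp2r1, which makes its precursor, by -0.35, and neither passed.

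S100g, Trpv6 and Atp2b1, which move calcium into, through and out of the cell, rose in wild type and differed between genotypes. S100g encodes calbindin-D9k, which carries calcium through the cell. It rose from -0.34, -0.71 and -0.15 to 7.10, 6.94 and 7.27 in wild type, and lay between -1.60 and -1.12 on all 6 ko arrays. Every ko array was below every wt vehicle array, a gap between genotypes that was not tested here. The effects were 7.44, 7.64 and 7.42 in the wt mice, a 180.9-fold rise, and -0.15, 0.48 and 0.07 in the ko mice. The difference of 7.37 (SE 0.17, adjusted p = 7.67e-06) spanned 6.96 to 7.77 at 95%, and a second probe gave 7.43. Trpv6, the calcium channel of the apical membrane, rose from -1.74, -1.996 and -3.17 to 2.93, 1.22 and 2.35 in wild type, and lay between -3.51 and -1.56 in knockout. Its effects spread widely, at 4.66, 3.22 and 5.52 against 0.70, 0.45 and -0.04, and the difference was 4.10 (SE 0.54, adjusted p = 0.0402). That call held without wt mouse 2 (0.0302) and ended without any 1 of the other mice (wt mouse 1, 0.219; wt mouse 3, 0.0758; ko mouse 1, 0.108; ko mouse 2, 0.223; ko mouse 3, 0.0547).

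Atp2b1, the pump that moves calcium out of the cell, started from a high level, which calcitriol raised from 1.59, 1.62 and 1.71 to 3.25, 3.13 and 3.44 in wild type. In knockout it went from 1.43, 1.72 and 1.48 to 1.24, 1.49 and 1.52. The wt calcitriol arrays stood alone above the rest, and the vehicle arrays of both genotypes overlapped. The difference was 1.76 (SE 0.12, adjusted p = 0.00266), with 1.85 at a second probe. S100g, Trpv6 and Atp2b1 were the 3 called among 17 tested members of the list of calcium and phosphate transport, whose median difference was 0.12, with 10 of 17 above 0, against -0.07 over all genes and 0.239% of them called. The claudin gene Cldn15 rose in wild type by 0.82 (adjusted p = 0.023) and its difference of 0.82 did not pass (adjusted p = 0.197). Atp2b2, Atp2b4, Slc8a1 and the phosphate carriers Slc20a1 and Slc20a2 did not pass.

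Promoter sequence is shown for S100g and Trpv6, the calcium genes with the largest differences, and for Cubn and its chromosomal neighbour Trdmt1, which was called too. Each is the 250 bases before the gene's start, from RefSeq on GRCm38.p6, read in the direction of the gene: S100g at chrX:162964600-162964849, Trpv6 at chr6:41636406-41636655, Cubn at chr2:13491877-13492126 and Trdmt1 at chr2:13544665-13544914, all on the minus strand. Capitals mark a half-site hexamer on either strand, which is AGGTCA or one of its variants: first AGTTCA, second GGGTCA and last GGTTCA.
S100g: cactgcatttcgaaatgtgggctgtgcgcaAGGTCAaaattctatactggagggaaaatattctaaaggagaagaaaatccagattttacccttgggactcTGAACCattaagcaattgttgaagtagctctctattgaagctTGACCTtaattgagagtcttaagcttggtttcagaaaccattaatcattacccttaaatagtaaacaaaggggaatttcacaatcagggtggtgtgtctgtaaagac
Trpv6: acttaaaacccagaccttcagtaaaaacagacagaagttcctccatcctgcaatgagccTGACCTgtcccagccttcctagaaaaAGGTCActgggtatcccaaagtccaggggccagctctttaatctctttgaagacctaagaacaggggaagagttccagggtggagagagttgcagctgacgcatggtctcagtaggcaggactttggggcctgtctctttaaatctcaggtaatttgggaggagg
Cubn: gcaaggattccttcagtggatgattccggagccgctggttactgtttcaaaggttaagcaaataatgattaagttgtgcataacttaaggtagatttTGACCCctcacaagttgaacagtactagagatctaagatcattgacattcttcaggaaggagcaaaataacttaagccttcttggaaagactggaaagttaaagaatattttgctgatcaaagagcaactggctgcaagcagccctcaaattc
Trdmt1: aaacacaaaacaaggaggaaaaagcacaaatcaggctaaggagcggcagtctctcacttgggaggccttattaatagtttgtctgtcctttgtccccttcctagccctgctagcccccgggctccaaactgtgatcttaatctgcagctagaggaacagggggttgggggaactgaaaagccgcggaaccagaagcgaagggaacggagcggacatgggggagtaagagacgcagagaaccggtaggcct
S100g held 3 such hexamers, Trpv6 2, Cubn 1 and Trdmt1 0. At least 1 hexamer stood in 17 of 41 windows (41.5%) of the 34 higher genes found in the table, of 46 with a symbol, against 38.6% of all 32851 windows of this length. A direct repeat, any of these hexamers followed by 3 bases of any kind and any of them again, was in 0 of the 41 windows and in 13 of all windows (0.0396%). These letters in this window are a description of sequence and no measure of binding.

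**Figure D2:**
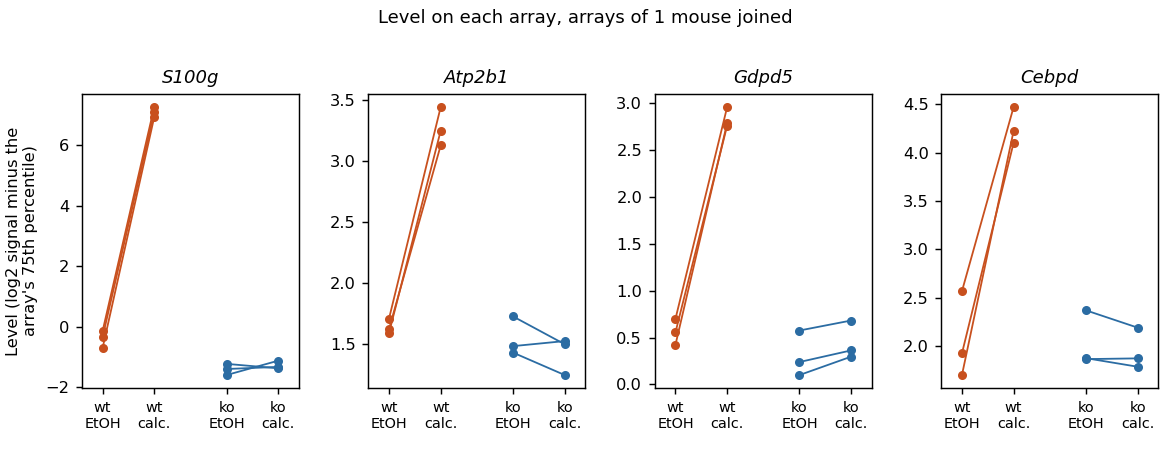
Level of S100g, Atp2b1, Gdpd5 and Cebpd on each of the 12 arrays (log2 signal minus the 75th percentile of the array), with the vehicle (EtOH) and calcitriol arrays of each mouse joined by a line. In all 3 wild-type mice (orange) the lines rise, by 1.51 to 1.74 for Atp2b1 and 7.42 to 7.64 for S100g, and in the 3 knockout mice (blue) no line rises by more than 0.48.

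Carriers of other metals were called too. Slc30a10, which exports manganese, went from -3.56, -4.63 and -2.27 to 2.83, 2.49 and 3.41 in wild type, and lay between -7.72 and -2.77 in knockout, where 4 of 6 arrays had it above background. The effects were 6.39, 7.12 and 5.68 against 0.02, 0.20 and 0.54, a difference of 6.15 (SE 0.40, adjusted p = 0.00259). Slc39a8, which imports zinc, manganese and iron, was measured well on all arrays, at 0.61, 1.01 and 0.95 in wt vehicle and 2.33, 2.54 and 2.60 with calcitriol. Its knockout levels were 0.58, 1.02 and 1.42 with vehicle and 0.70, 1.12 and 1.23 with calcitriol, so that only the wt calcitriol arrays stood out. The difference was 1.63 (SE 0.13, adjusted p = 0.00376). These were 2 of 19 list members, beside 0.239% of all genes, and the metal-binding genes Mt1 and Mt2, whose wild-type effects were 0.01 and -0.22, did not pass.

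Among other genes linked to vitamin D, 8 of 25 tested list members were called, all higher in wild type, beside 0.239% of all genes. The list holds Gdpd5, Adh6a, Pla2g7 and Klk11 because of earlier results on these arrays, so its count is no independent evidence. Gdpd5, a glycerophosphodiester phosphodiesterase, had effects of 2.26, 2.36 and 2.20 in wild type and 0.11, 0.12 and 0.20 in knockout, a difference of 2.13 (SE 0.10, adjusted p = 0.000623). Cebpd, whose protein regulates acute-phase and differentiation genes, had 1.90, 2.18 and 2.53 against -0.18, 0.01 and -0.09, a difference of 2.29 (SE 0.16, adjusted p = 0.00266). Its relatives Cebpa and Cebpb, at -0.10 and 2.34, did not pass. The value of Cebpb was no smaller than that of Cebpd, so its missed p does not show a weaker response. Fgf15, secreted by the gut to hold back bile acid production, had 3.35, 3.87 and 4.14 against -0.02, -0.51 and 0.29, a difference of 3.87 (SE 0.28, adjusted p = 0.00266). It was the 1 called of 22 members of the list of bile acid and xenobiotic genes, beside 0.239% of all genes. Mgp, an inhibitor of calcification, had 5.91, 4.58 and 5.38 against -0.0017, -0.45 and 0.84, where 3 of 6 ko arrays were above background. Its difference was 5.16 (SE 0.46, adjusted p = 0.00694), and the call ended without wt mouse 1 (0.0602). Fbp1, an enzyme of gluconeogenesis, differed by 2.10 (SE 0.26, adjusted p = 0.0341), a call that held without ko mouse 3 (0.0362) and ended without each of the others (0.108 to 0.216).

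Several called genes encode enzymes, grouped here after their values were seen. Pla2g7, which inactivates platelet-activating factor, had effects of 5.21, 3.88 and 4.47 in wild type and -0.08, -0.20 and -0.05 in knockout. Its difference was 4.63 (SE 0.39, adjusted p = 0.0049), and the call ended without ko mouse 2 (0.0534). The probe was above background on 9 of 12 arrays, and a second one, above it on 4, gave 2.92. Adh6a, an alcohol dehydrogenase, had 2.83, 3.09 and 2.96 against 0.04, 0.30 and 0.01, a difference of 2.84 (SE 0.13, adjusted p = 0.000623). Ugt2b35, a glucuronosyltransferase, differed by 3.15 (SE 0.38, adjusted p = 0.0319) and its relative Ugt2b34 by 0.92 (SE 0.11, adjusted p = 0.0255). The call of Ugt2b35 held without wt mouse 1 (0.0329) and ko mouse 3 (0.0168) and ended without wt mouse 2 (0.255), wt mouse 3 (0.0615), ko mouse 1 (0.112) or ko mouse 2 (0.207).

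The other large differences came from genes of varied roles. C2cd4b, a nuclear protein gene induced by inflammation, had effects of 4.26, 3.44 and 3.59 against -0.04, -0.14 and 0.16, a difference of 3.77 (SE 0.22, adjusted p = 0.00154), and its neighbour C2cd4a differed by 2.39 (SE 0.23, adjusted p = 0.00899). H2-Q1, a class I antigen gene of a family of near-identical members, had 3.25, 4.16 and 3.73 against 0.52, 0.53 and -0.18, a difference of 3.43 (SE 0.27, adjusted p = 0.00414). It was the 1 called of 22 interferon and antigen presentation genes, beside 0.239% of all genes. The matrix protein gene Spon2 differed by 3.68 (SE 0.42, adjusted p = 0.0236) and the ubiquitin ligase gene Trim47 by 2.72 (SE 0.37, adjusted p = 0.0461). Spon2 passed without wt mouse 1 (0.0292) or ko mouse 3 (0.0248) and not without wt mouse 2 (0.0569), wt mouse 3 (0.0784), ko mouse 1 (0.0849) or ko mouse 2 (0.157). Trim47 passed without wt mouse 3 (0.037) and not without any of the other mice (0.0706 to 0.231). C2cd4a did not pass without wt mouse 1 (0.0682), wt mouse 3 (0.0535) or ko mouse 2 (0.0714).

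**Figure D3:**
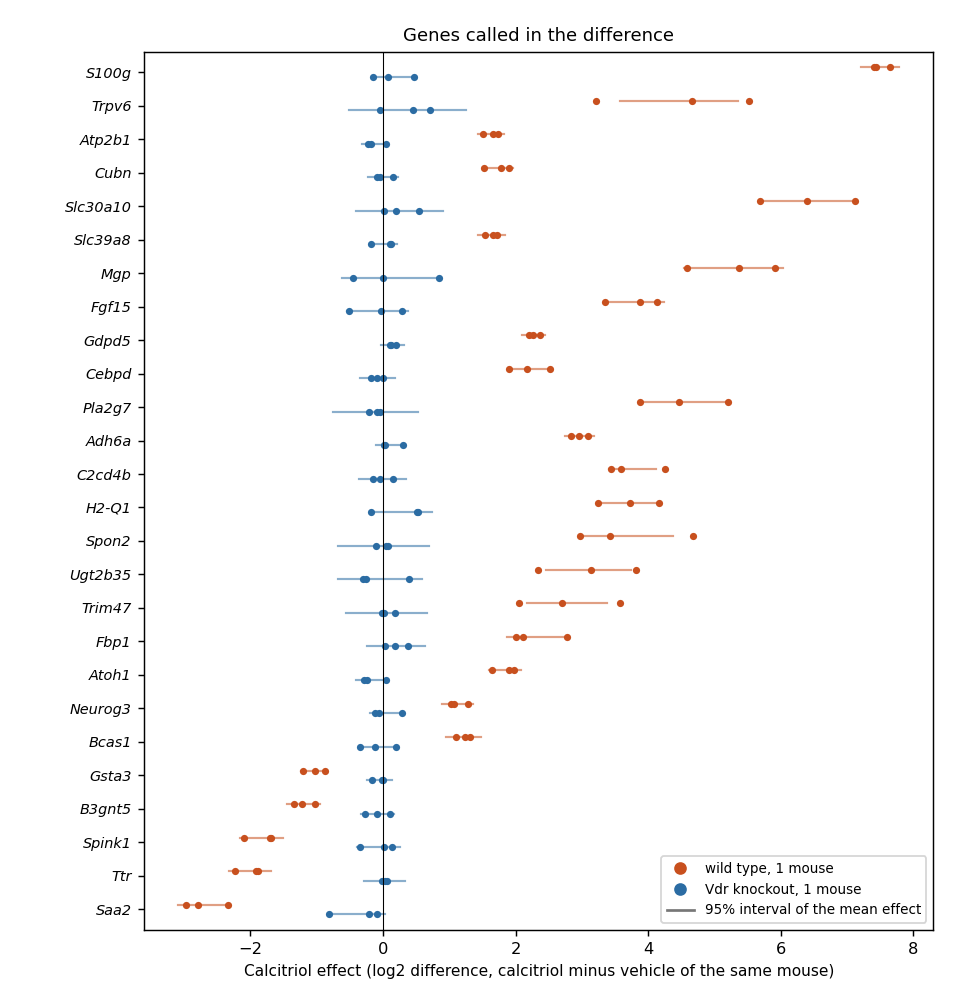
Calcitriol effect (log2, calcitriol minus vehicle of the same mouse) of 26 genes called in the difference, with 1 point per mouse and a line for the 95% interval of the mean effect, orange for wild type and blue for knockout. The blue points gather at 0, between -0.81 and 0.84, while the orange points lie apart from them in every row, from -2.98 for Saa2 to 7.64 for S100g.

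A pair of genes that direct crypt cells to secretory fates, Atoh1 and Neurog3, responded in wild type and differed between genotypes. Atoh1, the transcription factor that commits progenitors to the secretory lineage, lay at 0.73, 0.77 and 0.05 in wt vehicle and 2.72, 2.41 and 1.95 with calcitriol, and in knockout at 0.42, 0.78 and 0.41 with vehicle and 0.13, 0.53 and 0.46 with calcitriol. The 3 wt calcitriol arrays were the highest. The difference was 2.00 (SE 0.15, adjusted p = 0.00281). Neurog3, which starts the enteroendocrine fate, had effects of 1.28, 1.03 and 1.07 against -0.05, -0.12 and 0.29, a difference of 1.09 (SE 0.14, adjusted p = 0.0393) that passed without ko mouse 3 (0.0105) and not without the other mice (0.131 to 0.238). These were 2 of 14 tested members of the list of secretory fate and Notch genes, beside 0.239% of all genes. The list's median difference was -0.08 with 6 of 14 above 0. Spdef, Gfi1, Hes1 and Dll1 did not pass, at differences of 0.21, -0.01, -0.20 and 0.03.

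Of mature secretory markers, few were called in the difference. In wild type alone 5 of 20 goblet and deep crypt secretory genes were called higher and 1 lower, beside 0.672% and 0.297% of all genes. Bcas1 was the 1 of these 20 called in the difference, beside 0.239% of all genes. Its effects were 1.097, 1.32 and 1.23 against -0.35, 0.20 and -0.12, a difference of 1.31 (SE 0.16, adjusted p = 0.0319). It did not pass without wt mouse 1 (0.144), wt mouse 2 (0.247), wt mouse 3 (0.121) or ko mouse 1 (0.0951). The list's median difference was 0.34 against -0.07 over all genes, with 17 of 20 above 0, and Muc2, the main mucin, differed by 0.45 without passing. Outside the list and chosen after their values were seen, Itln1, a lectin that binds microbial sugars, differed by 2.27 (SE 0.21, adjusted p = 0.00759) and Best2, an anion channel of goblet cells, by 1.68 (SE 0.20, adjusted p = 0.0255). Best2 did not pass without wt mouse 1 (0.153), wt mouse 2 (0.221), wt mouse 3 (0.11) or ko mouse 1 (0.108), and it depended on the slide: with slide as a block in place of mouse its difference was -0.64, and within the largest slide 0.04. Itln1 did not pass without wt mouse 1 (0.0571) or wt mouse 2 (0.101). Neurog3 was the 1 called of 17 enteroendocrine genes, beside 0.239% of all genes. In that list Chga, Gcg and Pyy, at 0.54, -0.07 and 0.34, did not pass.

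The 5 genes that fell more in wild type than in knockout include secreted proteins of the acute phase and defence. Saa2, an acute-phase serum amyloid, went from 2.74, 0.02 and -0.67 to -0.24, -2.77 and -3.01 in wild type and from 2.63, 1.43 and -0.41 to 2.54, 0.62 and -0.62 in knockout. Mice differed more than treatments did in level, but each wt mouse fell by 2.34 to 2.98 and the ko mice moved by -0.81 to -0.09. The difference was -2.33 (SE 0.24, adjusted p = 0.0153). Ttr, which carries thyroid hormone and retinol, had effects of -1.88, -2.23 and -1.91 against 0.06, 0.03 and -0.01, a difference of -2.03 (SE 0.19, adjusted p = 0.0088). Spink1, a trypsin inhibitor, had -1.70, -1.70 and -2.10 against -0.34, 0.13 and 0.02, a difference of -1.77 (SE 0.20, adjusted p = 0.021). They were 3 of 19 epithelial defence genes, whose median difference was -0.41, beside 0.0206% of all genes called lower and a median of -0.07. The list was chosen with earlier results of these data known, so this count is no independent evidence. Saa1, at -1.24, and Tlr2, at -0.68, did not pass.

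The remaining falls were B3gnt5, a glycosyltransferase of glycolipids, at -1.11 (SE 0.15, adjusted p = 0.0448), and Gsta3, a glutathione transferase, at -0.98 (SE 0.12, adjusted p = 0.0255). Gsta3 was the 1 called of 17 antioxidant genes, beside 0.239% of all genes. None of the 5 falls passed in every setting that left out 1 mouse. Saa2 was lost without wt mouse 1 (0.0889), wt mouse 2 (0.155) or ko mouse 1 (0.065), Ttr without wt mouse 1 (0.0641), ko mouse 1 (0.0716) or ko mouse 2 (0.111), and Spink1 without any wt mouse (0.115, 0.134 and 0.0615) or ko mouse 2 (0.157). Gsta3 passed without ko mouse 3 (0.0417) and not without the other mice (0.0849 to 0.201), and B3gnt5 in none (0.0682 to 0.297).

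Several called genes were neighbours on a chromosome. By the gene order of RefSeq on GRCm38.p6, 5 pairs of called genes were adjacent, each called higher: Bcas1 and Cyp24a1 on chromosome 2, Cubn and Trdmt1 also on chromosome 2, C2cd4a and C2cd4b on chromosome 9, Inpp5j and Selenom on chromosome 11, and Adh1 and Adh6a on chromosome 3. A further 2 pairs had 1 gene between them, Mep1a and Pla2g7 on chromosome 17 and Ugt2b34 and Ugt2b35 on chromosome 5. Of the 80 tested genes that stood next to one of the 51 called genes with a symbol, 10 (12.5%) were called. Over all genes the share was 0.239%, and among tested genes with a symbol it was 51 of 14905. The 10 are the members of the 5 adjacent pairs, so each pair counts with both of its genes. Most genes further out moved little. Zfp217 and Pfdn4, the outer neighbours of Bcas1 and Cyp24a1, differed by 0.10 and 0.42, and Rsu1 and Vim, those of Cubn and Trdmt1, by 0.23 and 0.32.

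Within the pairs the sizes differed. Trdmt1, a tRNA methyltransferase gene, had effects of 1.25, 1.07 and 1.22 in wild type and -0.20, -0.16 and -0.03 in knockout, a difference of 1.31 (SE 0.10, adjusted p = 0.00414) beside 1.73 for Cubn. Selenom, a selenoprotein gene, differed by 1.75 (SE 0.13, adjusted p = 0.00266) and Inpp5j, an inositol phosphatase gene, by 0.89 (SE 0.10, adjusted p = 0.0205). Pla2g3, on the other side of Inpp5j, had an effect of 2.50 in wild type and 0.32 in knockout, and its difference of 2.19 did not pass (adjusted p = 0.16). Mep1a, a brush border protease gene, differed by 0.93 (SE 0.10, adjusted p = 0.0171) beside 4.63 for Pla2g7, and Adh1 by 1.21 (SE 0.14, adjusted p = 0.0255) beside 2.84 for Adh6a. The calls of Bcas1, Inpp5j, Mep1a, Adh1 and Ugt2b34 each ended without wt mouse 1, wt mouse 2 or ko mouse 1 (0.0704 to 0.247). All but Inpp5j ended without wt mouse 3 (0.0615 to 0.121), and all but Bcas1 without ko mouse 2 (0.142 to 0.204). The call of Ugt2b35 rested on 4 mice as given above, C2cd4a did not pass without wt mouse 1 (0.0682), and Pla2g7 not without ko mouse 2 (0.0534). The Adh, Ugt2b and C2cd4 pairs are close relatives in sequence, and whether their probes share signal was not tested.

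**Figure D4:**
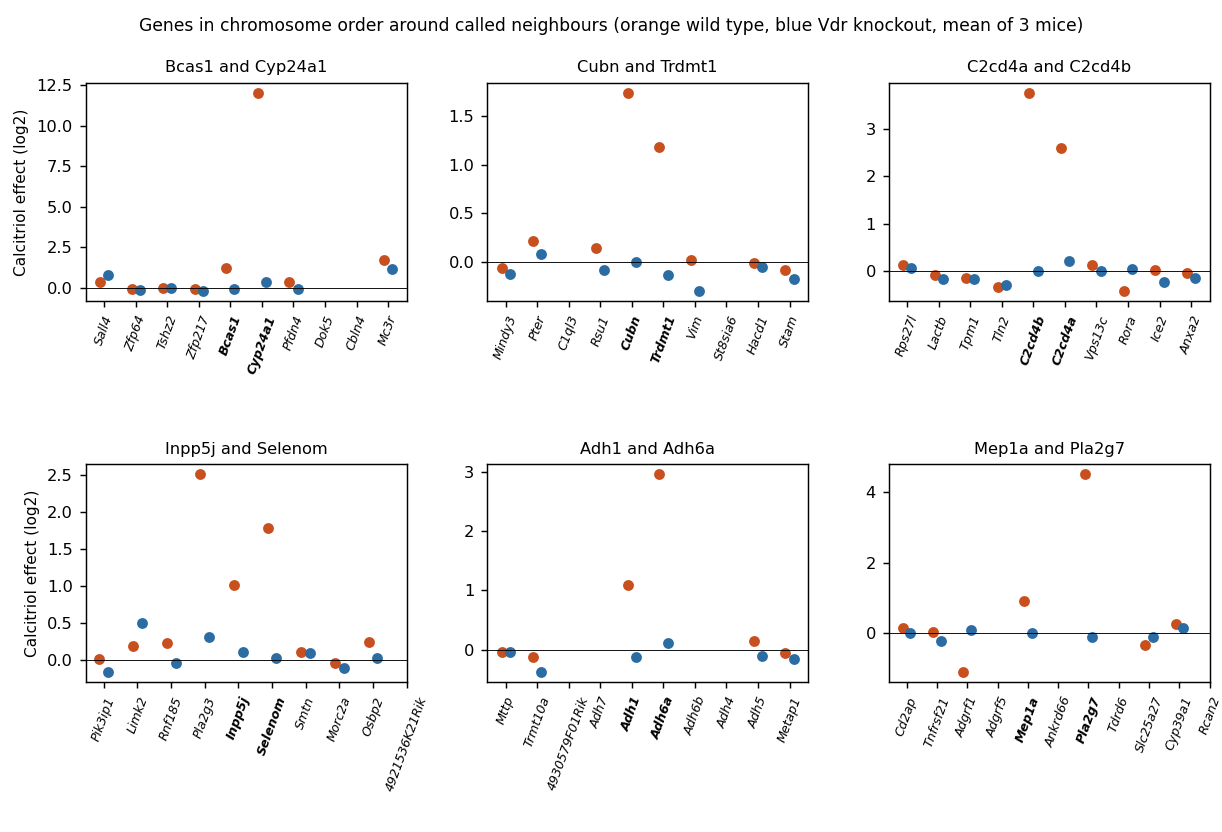
Mean calcitriol effect over 3 mice (log2) of genes in chromosome order around 6 pairs of called genes, named in bold, with wild type in orange and knockout in blue. Genes without points were not tested. Both genes of each pair lie above 0 in wild type, from 0.91 for Mep1a to 4.52 for Pla2g7 and beyond for Cyp24a1, while flanking genes lie within 1 of 0 except for Pla2g3 (2.50), Mc3r (1.69 in wild type and 1.18 in knockout) and Adgrf1 (-1.13).

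The whole wild-type response was then read in the knockout. The effects of the genotypes share no array, but their tests and intervals share a residual variance fitted over all arrays. In the main fit 235 genes were called in wild type, against 109 without ko mouse 2 and 340 without ko mouse 3. Genes called in wild type were thus chosen in part for low scatter in knockout, which narrows their knockout intervals. The interval counts given here are therefore no independent reading. Of 163 genes that rose in wild type, with a median effect of 1.01, the median knockout effect was 0.02. In knockout 94 of them (57.7%) were above 0, against 59.1% of all genes tested. The knockout interval lay above 0 for 5 of them (3.07%), against 5.50% of all genes. The median ratio of the knockout to the wild-type effect was 0.0177, and the knockout interval excluded the wild-type effect for 162 of the 163. Over all 24245 genes, which were not chosen for a large wild-type effect, the ratio was 0.248 and the interval excluded that effect for 4847. Of 72 genes that fell in wild type, with a median of -0.86, the median in knockout was -0.06, the median ratio was 0.0558, the interval excluded the wild-type effect for 71, and the knockout interval lay below 0 for 4 (5.56%, against 2.50% of all genes). The ratio of the knockout to the wild-type effect was highest, among genes with a symbol, for Ctla2a (0.645), Chst4 (0.561) and Tff3 (0.437).

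Genes that responded in both genotypes were sought in the mean of the 2 effects, where 63 were called (0.26%), 53 higher (0.219%) and 10 lower (0.0412%). With the numbers also pairing the genotypes there were 2564, 1924 higher and 640 lower, among them all 63. Of these, 46 were also called in the difference, so that a large wild-type effect alone had carried the mean. Among the other 17, 16 had a symbol and 11 moved the same way in all 6 mice, as 4.44% of all genes did. The 7 that rose were Cd200r2, Gnb5, Pdgfa, Tff3, Mogat2, Gm11937 and Gchfr, and the 4 that fell were Aldh1a3, Pmp22, Camk1d and Ctla2a. In 10 of the 11 the wild-type effect was the larger. The 95% interval of the knockout effect excluded 0 in 7, and the interval of the difference included 0 in 2, Gm11937 and Ctla2a. Over all genes the knockout interval lay above 0 for 5.50% and below 0 for 2.50%. The knockout effects helped to choose the 11 genes, so the 7 are no separate support for a shared response.

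Gm11937, a predicted gene, came nearest to an equal response. It lay at 1.31, 0.81 and 0.51 in wt vehicle and 1.64, 1.24 and 0.80 with calcitriol, and at 0.73, 0.60 and 0.28 in ko vehicle and 1.34, 1.02 and 0.71 with calcitriol. Every mouse rose, but the groups overlapped in level. Its effect was 0.34 in wild type and 0.49 in knockout, the mean 0.41 (SE 0.06, adjusted p = 0.0437) and the difference -0.14, with a 95% interval of -0.41 to 0.12. Ctla2a, an inhibitor of cysteine proteases, had effects of -0.45, -0.51 and -0.48 in wild type and -0.27, -0.28 and -0.38 in knockout. Its mean effect was -0.40 (SE 0.05, adjusted p = 0.0437) and the difference -0.17 (interval -0.42 to 0.08). The interval of Ctla2a still allows a difference as large as its mean effect, and that of Gm11937 one nearly as large.

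The other shared candidates were weaker in knockout. Tff3, the trefoil peptide of goblet cells and one of the most abundant transcripts here at a level of 5.67, had effects of 0.54, 0.72 and 0.66 in wild type and 0.24, 0.33 and 0.27 in knockout, with a mean of 0.46 (SE 0.05, adjusted p = 0.0175) and a difference of 0.36 (interval 0.12 to 0.60, adjusted p = 0.46). Pdgfa, a growth factor, had 0.96, 0.82 and 0.71 against 0.17, 0.24 and 0.24, with a mean of 0.52 (SE 0.05, adjusted p = 0.0132). Aldh1a3, an enzyme of retinoic acid synthesis, had -0.86, -1.15 and -0.96 against -0.42, -0.43 and -0.02, with a mean of -0.64 (SE 0.07, adjusted p = 0.0176). Mogat2, which rebuilds fats in the gut, Gchfr, Cd200r2 and Gnb5 had knockout effects of 0.16, 0.12, 0.16 and 0.07 with intervals that included 0. For Camk1d and Pmp22 the knockout effects were -0.24 and -0.18 at the probe used, but 0.09 and 0.00 at a second one. A second probe of Gnb5 gave -0.115 in knockout, the opposite sign, and 0.50 in wild type. For Pdgfa a second probe kept the sign in knockout (0.13).

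These mean-effect calls were the less firm ones. All 11 passed without ko mouse 3 (0.00398 to 0.0347). Leaving out any 1 of the other 5 mice ended every one of these calls (0.0509 to 0.264), except for Pdgfa without wt mouse 3 (0.0356). Slide moved with treatment. With mouse and slide in 1 fit Pdgfa (0.57, adjusted p = 0.0149), Pmp22 (-0.50, 0.0324) and Aldh1a3 (-0.52, 0.0429) passed. Gm11937 (0.40, 0.178) and Ctla2a (-0.43, 0.124) did not. The values of that fit come from wt mouse 3 and from ko mouse 3 plus a slide term of the wt mice. They therefore cannot show a response shared by all mice. Within the largest slide, Ctla2a had the opposite sign (0.59, adjusted p = 0.814), and Aldh1a3 stood at 0.06.

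**Figure D5:**
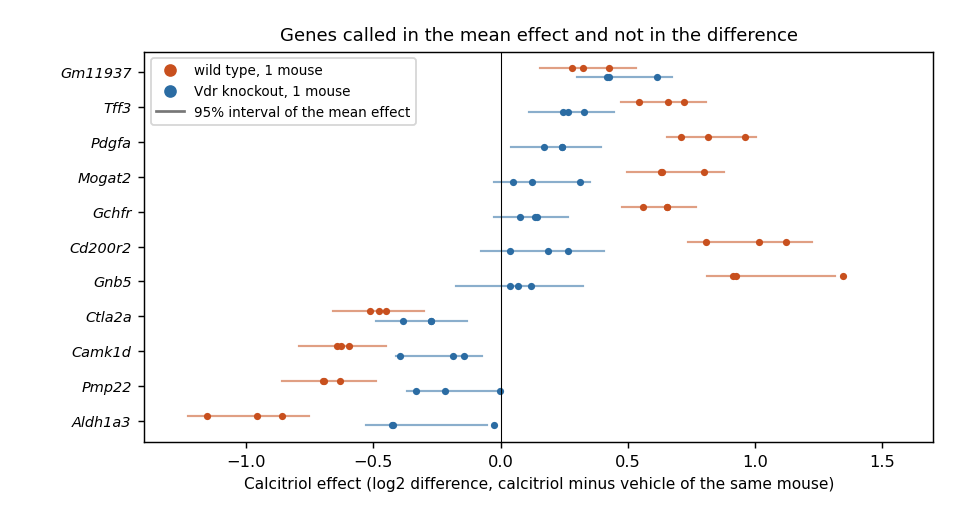
Calcitriol effect (log2, calcitriol minus vehicle of the same mouse) of the 11 genes called in the mean effect and not in the difference that moved the same way in all 6 mice, with 1 point per mouse and a line for the 95% interval, orange for wild type and blue for knockout. Points of the genotypes overlap for Gm11937 alone, and in the other rows the wild-type points lie farther from 0.

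In the knockout itself limma called 0 genes, with 1939 at an unadjusted p under 0.05, and 0 without the mouse block, with 1400. Other settings did call genes there: 999 with the numbers also pairing the genotypes (925 higher, 74 lower), 100 with each array scaled to its median (29 higher, 71 lower) and 48 with mouse and slide as blocks (19 higher, 29 lower). The genes with the smallest p were Gm11937, Kirrel3 (0.85, SE 0.15), Gpr3 (0.50, SE 0.10), Lhx6 (0.47, SE 0.09) and Caln1 (0.48, SE 0.10), all at adjusted p = 0.576. In wild type the last 4 had effects of -0.17, -0.23, -0.04 and 0.08, and their differences did not pass. Among immune markers all 8 tested members had a knockout effect above 0, with a median of 0.56 against 0.04 over all genes, and 7 of 8 were above 0 in wild type, with a median of 0.36. Other lists did likewise in knockout: the median was 0.46 for endothelial, neural and glial markers, with 8 of 9 above 0, and 0.58 for tuft cell genes, with 8 of 10. Ptprc, a defining gene of the immune list, lay near background at a mean level of -5.61. The summed signal of the immune list was 3.78 to 4.44 in wt vehicle, 4.30 to 4.66 in wt calcitriol, 3.82 to 4.09 in ko vehicle and 3.90 to 4.93 in ko calcitriol. The part of such cells in the results was not tested.

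Lists with no member called in the difference were those of the receptor and its cofactors (14 tested), tuft cells (10), crypt stem cells and Wnt (20), absorptive colonocytes (20), proliferation (24), cell cycle inhibitors and p53 targets (16), NF-kB targets and chemokines (22), and the epithelial, immune, fibroblast and endothelial or neural markers. Lgr5, the marker of crypt stem cells, was abundant, with effects of -0.32, -0.21 and -0.44 in wild type and -0.02, 0.03 and -0.06 in knockout, and its difference of -0.31 (SE 0.10) did not pass (adjusted p = 0.542). NF-kB and chemokine genes had a median difference of -0.30, with 3 of 22 above 0, and proliferation genes -0.02. The median was farthest from 0 for the tuft cell genes, at -1.03 with 2 of 10 above 0. They were dim, at a median level of -4.48. Scaling each array to its median raised the median difference of all genes from -0.07 to 0.74, so the list medians are to be read against the median of all genes.

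The calls rested on few mice. Of the 51 called genes with a symbol, 15 passed in all 6 settings that left out 1 mouse: Adh6a, Atoh1, Atp2b1, C2cd4b, Cebpd, Cubn, Cyp24a1, Fgf15, Gdpd5, H2-Q1, S100g, Selenom, Slc30a10, Slc39a8 and Trdmt1. Without the block by mouse 7 genes were called, and with slide added to it 65, of which 9 were among the 58. Those with a symbol were S100g (7.22, adjusted p = 0.000322), Cebpd (3.10, 0.00442), Adh6a (2.93, 0.02), Fgf15 (4.38, 0.0296), Trpv6 (7.15, 0.0317), Cubn (2.25, 0.0482) and Atp2b1 (1.85, 0.0498). Slc30a10 stood at 4.07 (0.364) in that fit, Gdpd5 at 1.90 (0.0629), Trim47 at 0.97 (1) and Saa2 at -1.59 (0.786). The wild-type effect of that fit was that of wt mouse 3 alone, both of whose arrays shared a slide. It was 7.42 for S100g, 5.52 for Trpv6, 1.74 for Atp2b1 and -2.34 for Saa2. The knockout effect was that of ko mouse 3 plus a slide term from the wt mice, and the other ko mice did not enter the value. These calls are therefore no slide-adjusted result over all mice, and the wt mouse 3 effects are no separate support for them.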

How the data were processed

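The deposited values are scanner intensities of 12 single-colour Agilent arrays; per the file headers, the authors extracted them with Agilent Feature Extraction 11.5.1.1, and the array annotation names mm9. Control spots and outlier spots were left out, and the processed intensity was set on a log2 scale minus each array's 75th percentile. A probe had to be well above background on all 3 arrays of a group, and each gene kept its probe of highest mean level, which left 24245 genes (14905 with a symbol). Symbols came from RefSeq accessions, which matched 28026 of 55681 probes. limma 3.58.1 in R 4.3.3 fitted a term per mouse and 1 calcitriol effect per genotype, with 4 residual degrees of freedom, moderated variances with a trend, and 2-sided p-values adjusted by Benjamini-Hochberg at 0.05. The code was tested on simulated data. Mouse pairs the arrays because the labels number vehicle and calcitriol cultures of a genotype alike: deviations from the group mean correlated at 0.57, 0.32 and 0.32 in wild type and 0.26, 0.59 and 0.10 in knockout. The replicates are separate mice. Their number limits the precision.

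Genes and lists were chosen with earlier results of these data known, so counts of called list members are no independent evidence. Named were the 12 largest rises and falls of the difference with effects that do not overlap, the 8 largest of the mean effect with 1 sign in all 6 mice, the 5 knockout genes of smallest p, called list members, up to 4 of a list, and Vdr, S100g, Atp2b1, Gdpd5, Cebpd and other fixed genes; any others were named after their values were seen. Alternatives were block, background correction, scaling, filter, probe choice, variance trend, slide and leaving out mice. Genes without a symbol are not named.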

Additional observations from a re-analysis of the deposited data

Results flagged for a closer look

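Each gene here had a calcitriol effect that differed between wild type and knockout by the limma test of that difference (adjusted over 24245 genes), with effects in the 3 wild-type mice that did not overlap those of the 3 knockout mice. Values are log2 differences, wild type minus knockout.

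Among genes of vitamin D metabolism and mineral transport these were Cubn (1.73), S100g (7.37), Trpv6 (4.10), Atp2b1 (1.76), Slc30a10 (6.15), Slc39a8 (1.63) and Mgp (5.16). Cyp24a1 met the test too, but its fitted 11.63 is no measured size, since it was above background on 0 of 6 knockout arrays and 1 of 3 wild-type vehicle arrays. Enzymes of lipids, sugars and small molecules were Pla2g7 (4.63), Pla2g2f (1.48), Gdpd5 (2.13), Adh6a (2.84), Adh1 (1.21), Ugt2b35 (3.15), Ugt2b34 (0.92), Fbp1 (2.10), Inpp5j (0.89) and Fut4 (1.60). Other enzymes or related proteins were Cox7a1 (1.18), Trdmt1 (1.31), Selenom (1.75) and Mep1a (0.93). A second probe gave 2.92 for Pla2g7 and 0.61 for Fut4.

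Regulators of transcription, fate and hormone signals were Cebpd (2.29), Atoh1 (2.00), Neurog3 (1.09), Fgf15 (3.87), C2cd4b (3.77), C2cd4a (2.39), Fhl2 (1.03) and Greb1l (1.69). Ubiquitin ligase genes were Trim47 (2.72) and Rnf149 (0.81). Secreted, surface and channel genes were Spon2 (3.68), H2-Q1 (3.43), Itln1 (2.27), Best2 (1.68), Sema5a (1.17), Egfl7 (0.98), Lrrc26 (0.97), Fam20c (0.97), Bcas1 (1.31) and Mctp2 (1.25). Genes of cell shape or of unstated role were Srgap3 (2.18), Asap1 (0.81), Fam13a (0.91) and 4931406C07Rik (0.80). Other probes of Srgap3 gave 1.24 and 1.61.

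The genes with negative differences were Saa2 (-2.33), Ttr (-2.03), Spink1 (-1.77), B3gnt5 (-1.11) and Gsta3 (-0.98).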

How the results depend on the processing

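The 51 named differences kept their direction under each of the 20 alternatives that gave a value (47 had one with the filter of all 12 arrays above background, where Cyp24a1, Mgp, Pla2g7 and Slc30a10 drop out), except Best2 (-0.64) and Fam20c (-0.52) with slide as a block in place of mouse, and Fam20c (-0.30) on the largest slide. S100g passed under all 20. Of the mean effects, Ctla2a turned to 0.0104 with slide as a block in place of mouse and to 0.59 on the largest slide, and Aldh1a3 to 0.0624 there. The cause was not tested.

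Counts moved more. Without the replicate block by mouse 7 genes were called in the difference (58 with it; 820 at an unadjusted p under 0.05), 39 in wild type (235), 0 in knockout (0) and 7 in the mean effect (63). With replicate numbers also pairing the genotypes, 232, 1329, 999 and 2564 were called, with 2 residual degrees of freedom. Same-numbered wild-type and knockout arrays deviated together, at correlations of 0.13 to 0.64, and replicate 2 is 3 months old in both genotypes. Their effects correlated at 0.48, 0.08 and 0.38, so whether numbers pair the effects is not settled. Scaling to the median gave 227, 648, 100 and 450, and moved the median difference of all genes from -0.07 to 0.74. Without a variance trend 12, 81, 0 and 16 were called. With mouse and slide as blocks the difference had 65 calls, 9 of them among the 58, wild type 116, knockout 48 and the mean effect 94. That fit took its wild-type value from wt mouse 3 alone, and of the ko mice only mouse 3 entered its knockout value. With slide as a block in place of mouse 1, 6, 0 and 4 were called, and on the largest slide 2, 3, 0 and 2. Leaving out mice gave 1 to 55 calls in the difference, 8 to 340 in wild type, 0 in knockout and 1 to 1774 in the mean effect; the lowest counts came without replicate 2 in both genotypes and the 1774 without ko mouse 3. Normexp, quantile normalization, other filters and probe means gave 53 to 61 calls in the difference, of which 53 or 54 were among the 58. Mouse as a random block gave 41, of which 31 were. Dim genes such as Cyp24a1, Slc30a10 and Mgp lay near or below background in some groups, which limits the size of their effects.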
